A study of Mus musculus with 9 samples.

Results

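The genes described here encode the core of mitochondrial fatty acid oxidation: Cpt1a, Cpt2, Acadvl, Acadl, Acadm, Acads, Echs1, Hadh, Hadha and Hadhb. A probe set, the group of oligonucleotides on the array that reports a transcript, was taken when its annotation gave exactly 1 gene symbol and that symbol was in this list. All 10 genes were found, with 18 of the 45101 probe sets on the array. They are 10 of the 18193 genes tested.

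Transcript levels were measured in neutrophils (c-kit- Gr1+ Mac1+), in Mac1+ myeloblasts (c-kit+ Gr1+ Mac1+) and in Mac1- myeloblasts (c-kit+ Gr1+, with Mac1 low or absent), on 3 Affymetrix arrays each and 9 in all. The marrow donors of all 3 populations were normal C57BL/6 mice, male or female, aged 4 to 10 weeks, with no treatment or engineered allele named. c-kit is the receptor for stem cell factor, Gr1 a surface antigen of granulocytes and Mac1 an integrin whose alpha chain is encoded by Itgam. Magnetic separation by c-kit came before the sort, and the c-kit+ cells were sorted as negative for B220, TER119, CD3, CD4, CD8 and IL7Rα. The labels do not say whether replicates came from separate animals or pools, so the p-values cover the spread among these arrays alone, and that spread may be technical.

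Mitochondrial beta-oxidation shortens fatty acids in repeated rounds. Long chains enter the matrix as carnitine esters, through the carnitine palmitoyltransferases Cpt1a on the outer and Cpt2 on the inner membrane. Each round then runs through an acyl-CoA dehydrogenase chosen by chain length, a hydratase, a 3-hydroxyacyl-CoA dehydrogenase and a thiolase. The trifunctional protein of Hadha and Hadhb carries out the last 3 of these steps on long chains, while Echs1 and Hadh act on shorter ones. Neutrophils are known for living largely on glycolysis and for having few mitochondria, and fatty acid oxidation has been linked to earlier stages of their development.

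Promoter sequences are shown for the genes on which the results turn: Hadh and Echs1, which differed most, Hadha and Hadhb, which share a promoter region, and Acadm, which was not called in any comparison. They come from RefSeq in the GRCm38.p6 build, where all 10 genes were matched, and are printed 5′ to 3′ on the named strand. Each ends at the base before the annotated start of transcription. Capitals mark matches, on either strand, to AGGTCA (a half-site of nuclear receptors), GGGCGG (the GC box), CCAAT or CACGTG (the E-box). The motifs were chosen after the data had been seen.
Hadha and Hadhb, chr5:30154981-30155252, plus strand: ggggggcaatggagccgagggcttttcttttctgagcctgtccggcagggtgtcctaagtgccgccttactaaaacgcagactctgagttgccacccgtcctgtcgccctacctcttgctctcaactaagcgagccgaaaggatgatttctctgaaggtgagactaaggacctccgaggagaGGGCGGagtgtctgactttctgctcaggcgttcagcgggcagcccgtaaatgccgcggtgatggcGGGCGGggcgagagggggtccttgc
Hadh, chr3:131272102-131272351, minus strand: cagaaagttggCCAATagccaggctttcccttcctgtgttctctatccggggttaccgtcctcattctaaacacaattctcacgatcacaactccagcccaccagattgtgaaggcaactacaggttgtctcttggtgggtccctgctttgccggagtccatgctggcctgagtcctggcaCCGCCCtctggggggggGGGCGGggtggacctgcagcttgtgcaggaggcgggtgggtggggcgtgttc
Echs1, chr7:140116422-140116671, minus strand: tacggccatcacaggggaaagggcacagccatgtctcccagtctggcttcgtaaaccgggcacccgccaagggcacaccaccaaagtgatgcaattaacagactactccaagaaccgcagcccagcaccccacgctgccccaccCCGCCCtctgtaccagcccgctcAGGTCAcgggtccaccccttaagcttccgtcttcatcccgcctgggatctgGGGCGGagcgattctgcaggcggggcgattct
Acadm, chr3:153944644-153944893, minus strand: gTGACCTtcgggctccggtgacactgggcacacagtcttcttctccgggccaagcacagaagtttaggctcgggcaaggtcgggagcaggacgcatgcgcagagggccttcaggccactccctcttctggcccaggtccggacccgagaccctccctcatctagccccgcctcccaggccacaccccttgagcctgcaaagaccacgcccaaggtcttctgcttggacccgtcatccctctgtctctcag

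Hadha (chr5:30119423-30154980, minus strand) and Hadhb (chr5:30155253-30184593, plus strand) lie head to head with 272 bases between their starts, so the printed stretch is the upstream region of both, and 228 bases are common to their windows of 250 bases. Hadh spans chr3:131233419-131272101, Echs1 chr7:140105710-140116421 and Acadm chr3:153922353-153944643, all on the minus strand. Among the 10 genes, 8 had a GC box in the 250 bases before the start, all but Acadvl and Acadm, against 32.7% of all 32851 promoters in the table. Hadha and Hadhb are 2 of these 8, and the first marked GC box of their printed stretch is counted for both. AGGTCA was found in 4 of the 10 (Cpt1a, Acadvl, Acadm and Echs1) and in 14% of all promoters. CCAAT was found in Cpt1a and Hadh, and in 33.8% of all promoters. None of the 10 held CACGTG, found in 6.02% of all promoters. None held an exact AGGTCANAGGTCA (a consensus form of the PPAR response element, 0.0335%) or TCAAGGTCA (one of the estrogen-related receptor element, 0.387%). Exact matches to these 2 are so rare among all promoters that their absence from 10 windows says little about such elements. The last 2 motifs contain AGGTCA. The 3 genes with the largest called differences below, Hadh, Echs1 and Acads, all held a GC box, as did Cpt1a and Cpt2, which were not called.

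Values are the deposited intensities on a linear scale, and tests used log2(intensity + 16). The offset damps noise and understates differences of dim genes. The median intensity was 61.8 on neutrophil array 1 and 39.1 to 45.4 on the other 8 arrays. That array stood apart: its mean correlation with the other neutrophil arrays was 0.933, against 0.956 to 0.993 for the other arrays within their groups. Its summed progenitor markers came to 16063, against 4781 and 2805 on neutrophil arrays 2 and 3, mostly from the granule protein genes Mpo (7132 on array 1, 1712 and 778 on the others), Prtn3, Elane and Ctsg. Kit itself ran the other way, at 95 on array 1 and 295 and 331 on arrays 2 and 3, and Cd34 was dim on all 3, at 12 to 23. Results that rest on neutrophil array 1 are given with and without it. The sort markers followed the labels. Kit was lower in neutrophils than in Mac1+ and Mac1- myeloblasts, with differences of -3.87 ± 0.38 and -3.79 ± 0.38 on the log2 scale (limma, adjusted p = 2.47e-05 and 2.3e-05). Itgam was higher in Mac1+ than in Mac1- myeloblasts by 3.23 ± 0.24 (adjusted p = 3.37e-05). In sorted cells measured in bulk, fewer expressing cells and less RNA per cell cannot be told apart, and array values are relative to each array's own RNA.

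In neutrophils, 6 of the 10 genes fell relative to Mac1+ myeloblasts and the same 6 fell relative to Mac1- myeloblasts: Hadh, Echs1, Acads, Acadl, Hadha and Hadhb. None rose. Of all genes tested against Mac1+ myeloblasts 48.1% were called, 28.4% lower and 19.7% higher, and against Mac1- myeloblasts 52.6%, 30% lower and 22.6% higher (limma, Benjamini-Hochberg adjusted p under 0.05). The median difference of the 10 genes was -1.10 in both comparisons, beside 0.05 for all genes. The values for all genes include many dim ones, as only 36.4% to 41.1% of probe sets on an array were above 100. The 10 genes were at 287 or more on every myeloblast array, by the probe sets kept for them. They were also chosen with earlier results of these data known. Cpt1a, Cpt2, Acadvl and Acadm did not pass the test in either. The neutrophil values did not overlap those of Mac1+ myeloblasts for these 6 genes, and those of Mac1- myeloblasts for 7, the same 6 and Acadvl, against 54.6% and 59.1% of all genes. Of the 18 probe sets 8 were called against Mac1+ and 9 against Mac1- myeloblasts, all lower. Among all probe sets 40.8% were called against Mac1+ (19.8% higher, 21% lower) and 45.1% against Mac1- myeloblasts (22.5% higher, 22.6% lower). Both comparisons use the same neutrophil arrays, so they are not independent of each other.

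**Figure D1:**
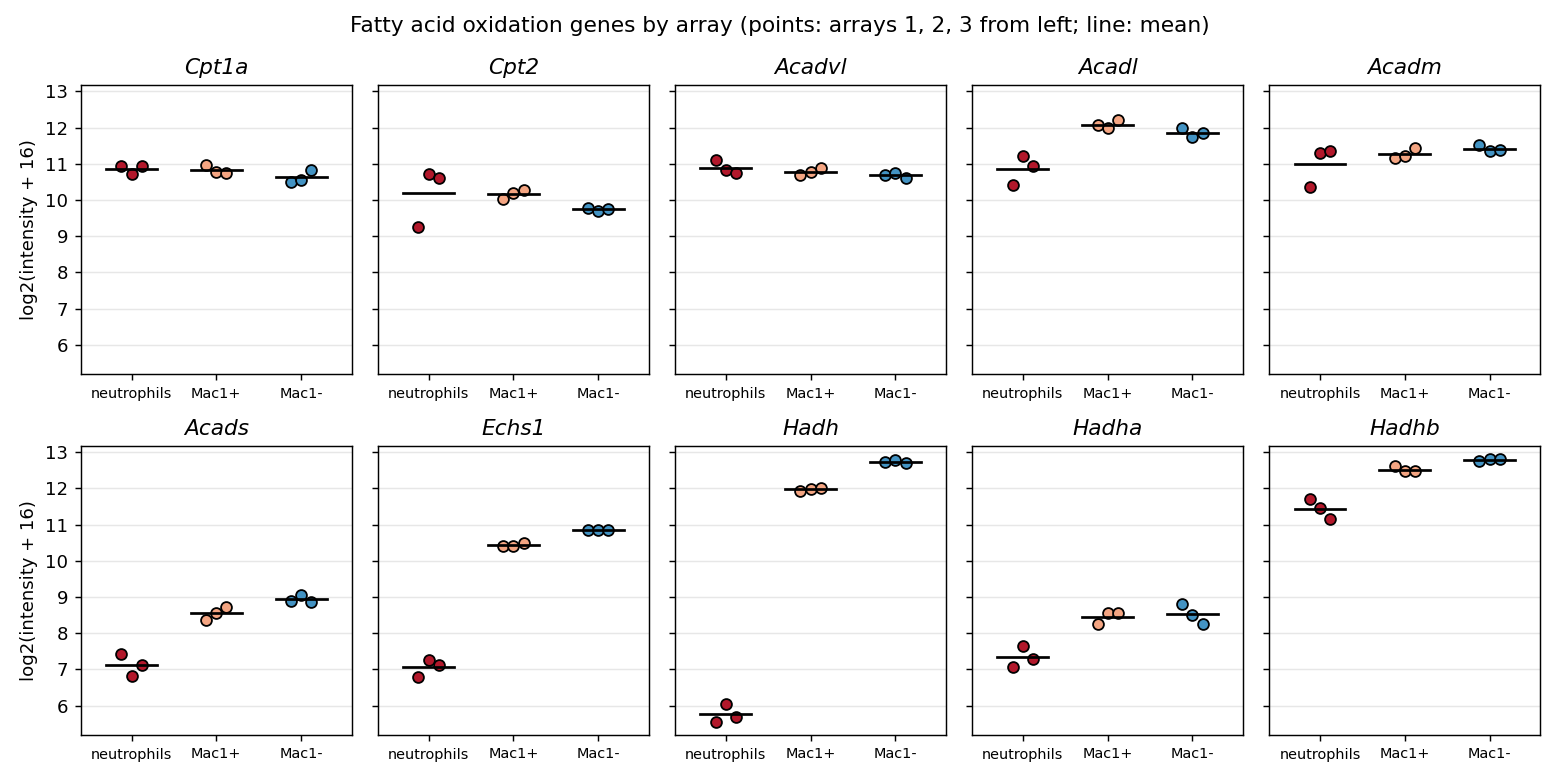
Levels of the 10 genes on each array, as log2(intensity + 16) on a common vertical axis. Points are arrays 1, 2 and 3 of neutrophils, Mac1+ myeloblasts and Mac1- myeloblasts, and lines are the means of 3 arrays. Neutrophil points lie below all myeloblast points for Acadl, Acads, Echs1, Hadh, Hadha and Hadhb.

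Neither enzyme of the carnitine shuttle was called in neutrophils with all arrays in the fit. Cpt1a, the outer-membrane transferase and the point where malonyl-CoA restrains entry, had intensities of 1928, 1666 and 1949 in neutrophils, 1966, 1720 and 1706 in Mac1+ myeloblasts, and 1433, 1488 and 1814 in Mac1- myeloblasts. The groups overlapped in each pair. Its difference was 0.04 between neutrophils and Mac1+ myeloblasts (95% interval -0.31 to 0.39, adjusted p = 0.852) and 0.23 between neutrophils and Mac1- myeloblasts (-0.12 to 0.58, adjusted p = 0.239). These intervals leave out any 2-fold change. The other probe sets of Cpt1a were as bright, at 974 to 2007, and were not called in any comparison.

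Cpt2, which turns the carnitine esters back into acyl-CoA inside the mitochondrion, was not called in any comparison with all arrays in the fit, and its calls depended on neutrophil array 1. Its intensities were 594, 1653 and 1530 in neutrophils, 1035, 1162 and 1227 in Mac1+ myeloblasts, and 870, 818 and 848 in Mac1- myeloblasts. The values of neutrophil arrays 2 and 3 were above every myeloblast value and that of array 1 below every one. With all arrays the difference from Mac1+ myeloblasts was 0.01 (95% interval -0.76 to 0.78, adjusted p = 0.982) and that from Mac1- myeloblasts 0.43 (-0.34 to 1.21, adjusted p = 0.317). Without neutrophil array 1, Cpt2 was higher in neutrophils by 0.48 than in Mac1+ myeloblasts (limma, adjusted p = 0.00831) and by 0.90 than in Mac1- myeloblasts (adjusted p = 0.000195). Cpt2 in Mac1+ against Mac1- myeloblasts differed by 0.42, with an adjusted p of 0.608 over all arrays, 0.0211 without neutrophil array 1 and 0.0224 with only the myeloblast arrays fitted. A second probe set, 1447820_x_at, was near the floor of the array at 1 to 26 and carries no level.

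The 4 acyl-CoA dehydrogenases, which take the first step of a round, did not move together. Acadvl, the enzyme for very long chains, had 2193, 1799 and 1709 in neutrophils, 1637, 1733 and 1866 in Mac1+ myeloblasts, and 1643, 1696 and 1557 in Mac1- myeloblasts. Its neutrophil values were all just above those of Mac1- myeloblasts, by a mean of 0.21 (95% interval -0.12 to 0.54, limma, adjusted p = 0.259), and overlapped those of Mac1+ myeloblasts (0.12, adjusted p = 0.546). Acadl, the long-chain enzyme, had 1339, 2349 and 1958 in neutrophils, 4282, 4013 and 4681 in Mac1+ myeloblasts, and 4038, 3399 and 3708 in Mac1- myeloblasts. Every neutrophil array lay below every myeloblast array. Acadl fell by 1.23 ± 0.21 on the log2 scale in neutrophils against Mac1+ myeloblasts, or 2.34-fold (adjusted p = 0.000975), and by 1.01 ± 0.21 against Mac1- myeloblasts (adjusted p = 0.0028). Averaged with its dim probe set 1448988_at, at 8 to 22, Acadl differed by -0.66 and -0.40 and was still called.

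Acadm, the medium-chain enzyme, had 1297, 2497 and 2617 in neutrophils, 2284, 2378 and 2729 in Mac1+ myeloblasts, and 2901, 2606 and 2659 in Mac1- myeloblasts. Neutrophil array 1 was below all the other arrays, and neutrophil arrays 2 and 3 lay among the myeloblast values. Its difference was -0.27 (95% interval -0.85 to 0.31, limma, adjusted p = 0.423) against Mac1+ myeloblasts, and 0.06 without neutrophil array 1. The difference of Acadm from Mac1- myeloblasts was -0.41 (adjusted p = 0.209), and -0.09 without that array. Acads, the short-chain enzyme, was dimmer, with 156, 97 and 122 in neutrophils, 316, 360 and 406 in Mac1+ myeloblasts, and 459, 515 and 448 in Mac1- myeloblasts. The 3 groups did not overlap. Acads fell by 1.43 ± 0.18 in neutrophils against Mac1+ myeloblasts (2.70-fold, adjusted p = 0.000158) and by 1.82 ± 0.18 against Mac1- myeloblasts (3.52-fold, adjusted p = 2.69e-05).

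Echs1, the short-chain enoyl-CoA hydratase of the matrix, showed the second largest difference of the 10 genes. It had 94, 138 and 123 in neutrophils, 1351, 1348 and 1413 in Mac1+ myeloblasts, and 1817, 1839 and 1813 in Mac1- myeloblasts. The arrays of each myeloblast group lay close together, and every neutrophil array lay far below both groups. On the log2 scale Echs1 averaged 7.05 ± 0.25 in neutrophils, 10.44 ± 0.04 in Mac1+ myeloblasts and 10.85 ± 0.01 in Mac1- myeloblasts (SD, n = 3 each). It fell 10.4-fold in neutrophils against Mac1+ myeloblasts (difference -3.38 ± 0.15, limma, adjusted p = 2.36e-07) and 13.8-fold against Mac1- myeloblasts (-3.79 ± 0.15, adjusted p = 8.78e-08). Its neutrophil values were at percentiles 57.9, 66.8 and 66 of all probe sets and were not shown to be above background. The folds are therefore approximate, as are those of Acads above and Hadha below, whose neutrophil values were similarly low.

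Hadh, the 3-hydroxyacyl-CoA dehydrogenase for short and medium chains, fell more than any other of the 10 genes. It was among the brightest genes of the myeloblasts and close to the middle of the array in neutrophils. Probe set 1455972_x_at had intensities of 31, 50 and 36 in neutrophils, 3888, 3994 and 4137 in Mac1+ myeloblasts, and 6714, 7054 and 6698 in Mac1- myeloblasts. The 3 groups were far apart, and no array of a group came near another group. In percentiles of all probe sets on the array these were 34.2, 52 and 47.4 in neutrophils, 95 to 95.3 in Mac1+ myeloblasts and 97.9 to 98.1 in Mac1- myeloblasts.

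The difference of Hadh was -6.21 ± 0.16 in neutrophils against Mac1+ myeloblasts (limma, adjusted p = 4.01e-08) and -6.97 ± 0.16 against Mac1- myeloblasts (adjusted p = 1.33e-08). The neutrophil values of Hadh lay near the array medians of 61.8, 45.4 and 40.9 and were not shown to be above background, so the differences are given as fitted, with no fold. A further probe set, 1460184_at, had 31, 28 and 24 in neutrophils, 637, 663 and 754 in Mac1+ myeloblasts, and 1461, 1272 and 1295 in Mac1- myeloblasts. It gave the same order of the populations with smaller differences, of -4.01 and -4.96 (adjusted p over all probe sets = 1.74e-07 and 5.16e-08). The remaining probe set, 1436756_x_at, was dim everywhere, at 2 to 62, and differed by -0.67 from Mac1+ (adjusted p = 0.123) and by -1.54 from Mac1- myeloblasts (adjusted p = 0.00311). With the mean of the 3 probe sets the differences of Hadh were -3.63 and -4.49, so the size depends on the probe set while the direction did not.

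**Figure D2:**
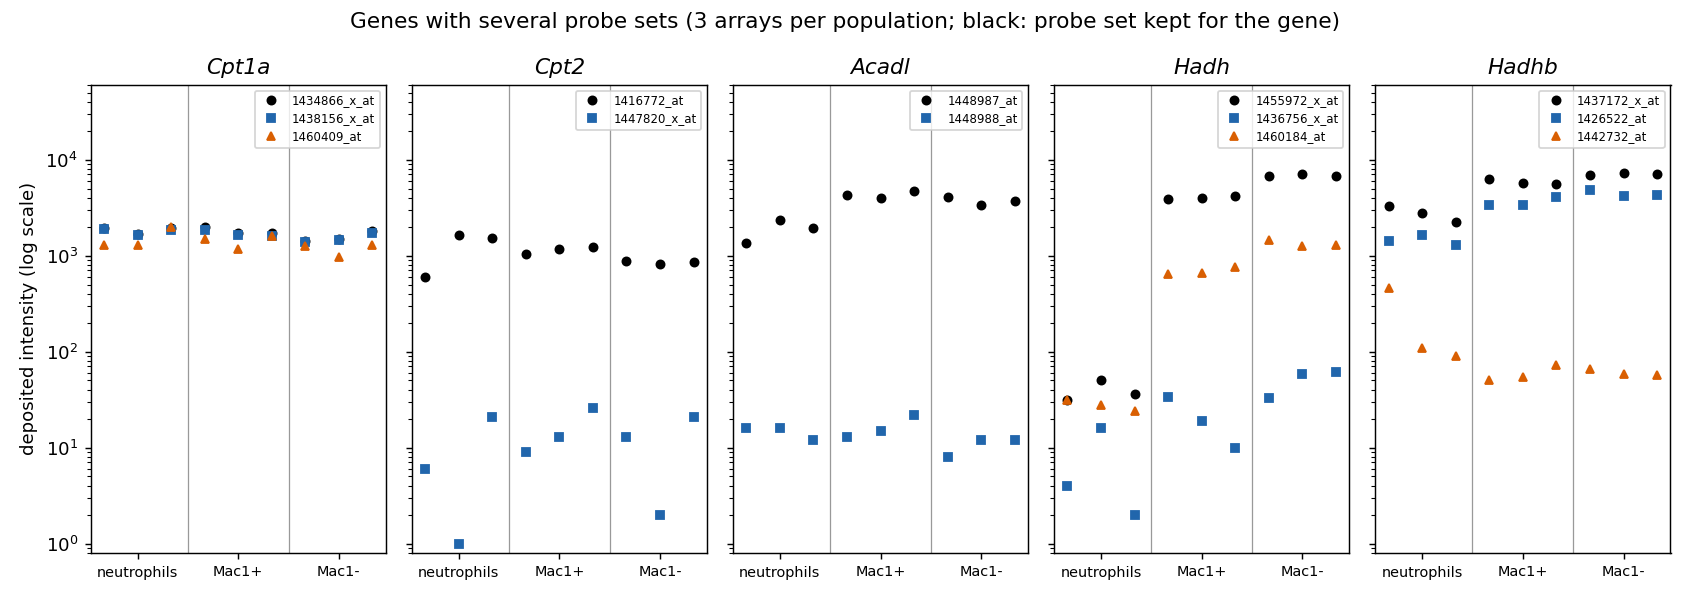
Deposited intensities (logarithmic axis) of every probe set of the 5 genes with several, with arrays 1 to 3 of neutrophils, Mac1+ and Mac1- myeloblasts from left to right. Black points are the probe set kept for the gene, that with the highest mean. For Hadh the 2 brighter probe sets are both at 24 to 50 in neutrophils, and for Hadhb the dimmest probe set runs against the other 2.

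For the trifunctional protein, which handles long chains, the transcripts of both subunits were lower in neutrophils by the probe sets kept for the genes. Hadha, the alpha subunit with hydratase and dehydrogenase activity, had 118, 186 and 139 in neutrophils, 287, 363 and 360 in Mac1+ myeloblasts, and 429, 347 and 290 in Mac1- myeloblasts. The neutrophil arrays were below all myeloblast arrays, while the myeloblast groups overlapped. Hadha fell by 1.12 ± 0.21 against Mac1+ (2.17-fold, limma, adjusted p = 0.00174) and by 1.18 ± 0.21 against Mac1- myeloblasts (2.27-fold, adjusted p = 0.00106).

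Hadhb, the beta subunit with the thiolase activity, had 3323, 2770 and 2251 in neutrophils, 6245, 5666 and 5636 in Mac1+ myeloblasts, and 6841, 7189 and 7127 in Mac1- myeloblasts. None of the groups overlapped. It fell by 1.08 ± 0.16 against Mac1+ (2.12-fold, limma, adjusted p = 0.000471) and by 1.35 ± 0.16 against Mac1- myeloblasts (2.56-fold, adjusted p = 9.2e-05). Probe set 1426522_at gave differences of -1.31 and -1.61. The dim probe set 1442732_at had 459, 110 and 89 in neutrophils against 50 to 73 in both myeloblast groups, the opposite direction (1.31, adjusted p over all probe sets = 0.0579, and 1.27, adjusted p = 0.0595). When the 3 probe sets were averaged, Hadhb was no longer called, with -0.36 (adjusted p = 0.21) and -0.56 (adjusted p = 0.0595).

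**Figure D3:**
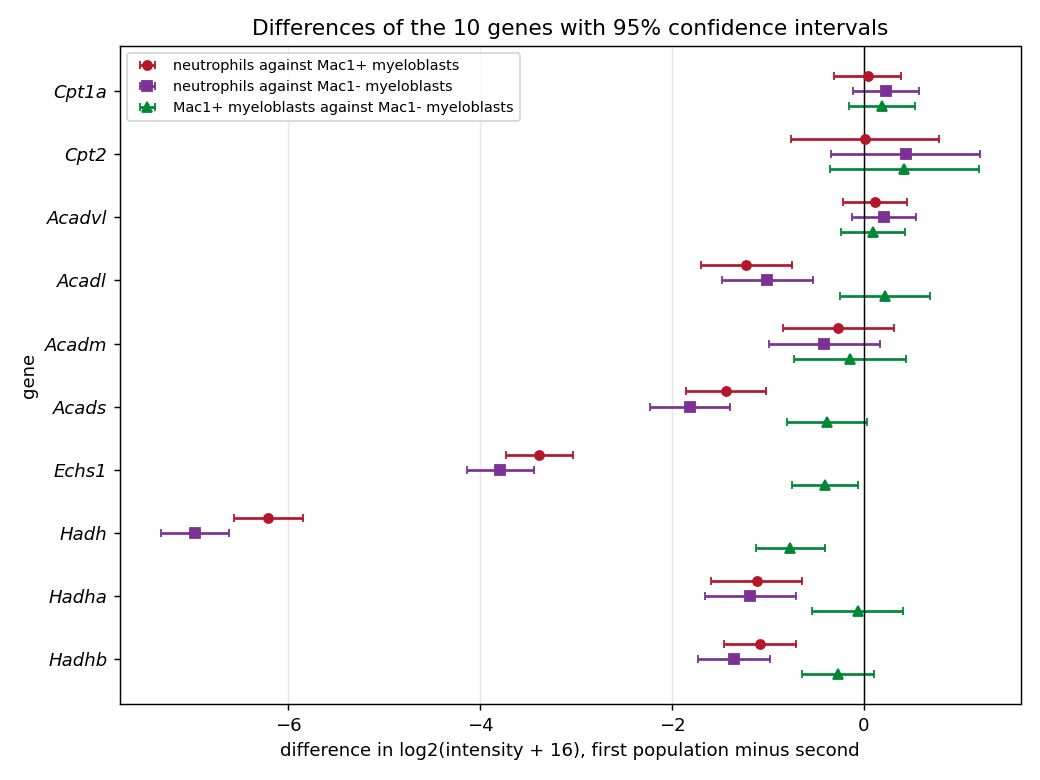
Differences of the 10 genes in log2(intensity + 16) with 95% confidence intervals, first population minus second, for the 3 comparisons. The intervals of Hadh and Echs1 lie far left of 0 in both neutrophil comparisons, those of Acads, Acadl, Hadha and Hadhb lie nearer to 0 and below it, and those of Cpt1a, Cpt2, Acadvl and Acadm include 0.

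Set among all genes, Hadh and Echs1 stand in the far lower tail and the other called genes nearer to the centre. Of all genes, 10% lay below -2.34 in neutrophils against Mac1+ myeloblasts and below -2.64 against Mac1- myeloblasts. Only Hadh and Echs1 of the 10 were below these marks. Ranked by their difference, 791 genes were at or below Echs1 in the comparison with Mac1+ myeloblasts and 3970 at or below Hadhb, the smallest called difference.

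**Figure D4:**
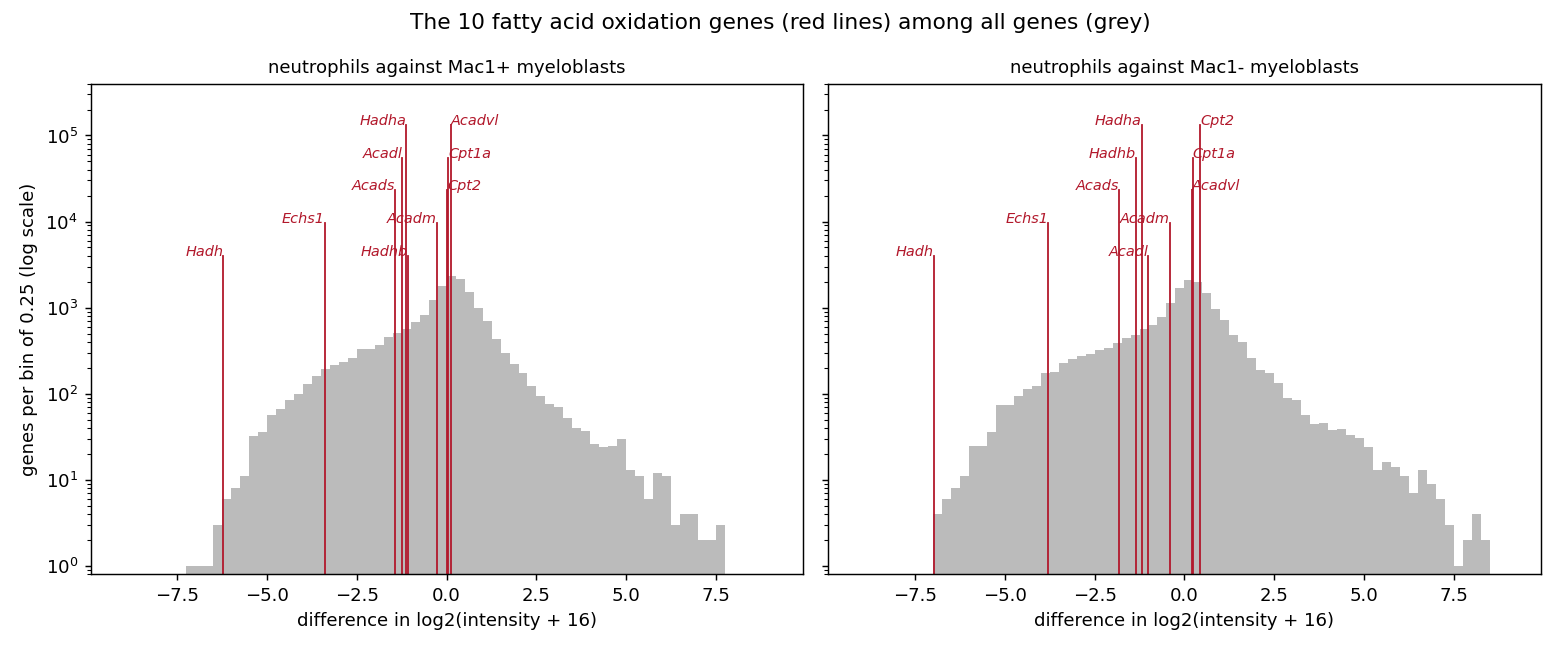
Histogram of the differences of all 18193 genes in log2(intensity + 16), neutrophils against Mac1+ (left) and Mac1- myeloblasts (right), with a logarithmic vertical axis of genes per bin. Red lines mark the 10 oxidation genes. Hadh lies at the lower edge of both distributions, and Cpt1a, Cpt2, Acadvl and Acadm lie near 0.

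Between the myeloblast populations the 10 genes differed little. Hadh alone was called, lower in Mac1+ than in Mac1- myeloblasts by 0.77 ± 0.16, or 1.7-fold (limma, adjusted p = 0.0126). Calls were made for 11.8% of all genes, 5.51% lower and 6.31% higher. The median difference of the 10 was -0.11, beside -0.01 for all genes. The call of Hadh did not hold without some arrays: leaving out Mac1+ array 1 or 2, or Mac1- array 2 or 3, gave adjusted p of 0.0531, 0.0538, 0.0621 and 0.0541 with differences of -0.74 to -0.78. Over all 19 alternative fits, Hadh was called in 14, and its difference ranged from -0.96 to -0.73. Of the 18 probe sets 2 were called, both of Hadh and lower, against 6.79% of all probe sets (3.69% higher, 3.1% lower). Probe set 1460184_at of Hadh differed by -0.96 ± 0.16 (adjusted p over all probe sets = 0.00556).

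For 5 of the 10 genes the arrays of the myeloblast groups did not overlap, against 39.9% of all genes. Hadh, Echs1, Acads and Hadhb were lower and Cpt2 higher in every Mac1+ array. Echs1 differed by -0.41 ± 0.15 (adjusted p = 0.146, and 0.0151 without neutrophil array 1), Acads by -0.38 ± 0.18 (adjusted p = 0.283) and Hadhb by -0.27 ± 0.16 (adjusted p = 0.435). Cpt2 differed by 0.42 ± 0.34 (adjusted p = 0.608). Without neutrophil array 1, which enters the shared estimate of the spread, its difference was again 0.42 and the adjusted p 0.0211. The remaining genes were not called: Acadl at 0.22, Cpt1a at 0.19, Acadvl at 0.09, Hadha at -0.06 and Acadm at -0.15.

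Markers of other blood cells moved with some of these comparisons. The 13 monocyte and macrophage markers measured summed to 11293 to 13025 in Mac1+ myeloblasts and 33509 to 35042 in Mac1- myeloblasts, with 1 higher and 6 lower in Mac1+ cells. Irf8, a transcription factor of monocyte and dendritic cell precursors, had 432, 549 and 1047 in Mac1+ myeloblasts and 13516, 12624 and 13335 in Mac1- myeloblasts. Csf1r, a growth factor receptor of the macrophage lineage, had 485 to 715 in Mac1+ and 8166 to 8797 in Mac1- myeloblasts. Their part in the difference of Hadh between the myeloblasts was not tested. In neutrophils the same monocyte sum was 12851 to 19920, and highest on array 1. Its genes moved in both directions, with 5 higher and 1 lower against Mac1+, and 6 higher and 5 lower against Mac1- myeloblasts. Csf1r had 12949, 7976 and 7112 in neutrophils against 485 to 715 in Mac1+ myeloblasts, and Vcam1 had 271 to 485 against 7552 to 8243. The part of these and of the progenitor markers on neutrophil array 1 in the low values of Cpt2 and Acadm there was not tested.

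B cell markers came to 1064 to 2719 in neutrophils, 2837 to 12536 in Mac1+ and 8451 to 12687 in Mac1- myeloblasts, most of it from Ebf1, with 1 to 2 of 8 genes above an intensity of 100 in a population. The low Mac1+ sum was that of array 3: Ebf1 had 11772, 8838 and 1898 on Mac1+ arrays 1, 2 and 3. On the same arrays the monocyte gene Ccr2 also fell, at 2426, 1183 and 310, while Irf8 rose. Erythroid sums were 400 to 742, 545 to 668 and 468 to 594 in neutrophils, Mac1+ and Mac1- myeloblasts. For megakaryocytes and platelets they were 607 to 739, 349 to 418 and 291 to 373, and for T and NK cells 553 to 745, 178 to 250 and 136 to 390. Eosinophil sums were 758 to 909, 2189 to 2407 and 725 to 975, with Siglecf as the main source. Basophil and mast cell sums were 8622 to 11350, 6863 to 7534 and 3989 to 4773, most of it from Hdc (8363 to 10890 in neutrophils). The basophil gene Mcpt8 had 13 to 58 in neutrophils and 596 to 696 in Mac1+ myeloblasts, and 1 gene of this list was higher and 3 lower in each neutrophil comparison. Dendritic cell sums were 1359 to 1597, 377 to 393 and 867 to 1018. Itgax made up most of the neutrophil sum, while Bst2 had 24 to 111 in neutrophils, 169 to 256 in Mac1+ and 571 to 740 in Mac1- myeloblasts. The neutrophil list summed to 86308 to 106028, 72352 to 81814 and 15954 to 19691, and the progenitor list to 2805 to 16063, 72172 to 85194 and 76795 to 84846 in the same order.

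Beyond the 10 genes, 106 genes of 11 lists around fatty acid oxidation were measured. In neutrophils against Mac1+ myeloblasts 27 were higher, 44 lower and 35 not called, where 19.7% of all genes were higher and 28.4% lower. Against Mac1- myeloblasts 33 were higher, 48 lower and 25 not called, beside 22.6% and 30% of all genes. In Mac1+ against Mac1- myeloblasts 11 were higher, 11 lower and 84 not called, beside 6.31% and 5.51%. Without neutrophil array 1 these counts were 35 and 44, 35 and 50, and 14 and 22. The share of all genes called in that fit was not computed, so its counts, here and below, are not read as a result about these lists. Below or close to the middle of the arrays were Acss1, Tmlhe, Slc22a5, Decr1 and Fasn in neutrophils and Rxra in both myeloblast groups. So were Elovl6, Bdh1 and Ppargc1b in neutrophils and Mac1+ myeloblasts, and the sizes of the differences of all these genes are uncertain.

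**Figure D5:**
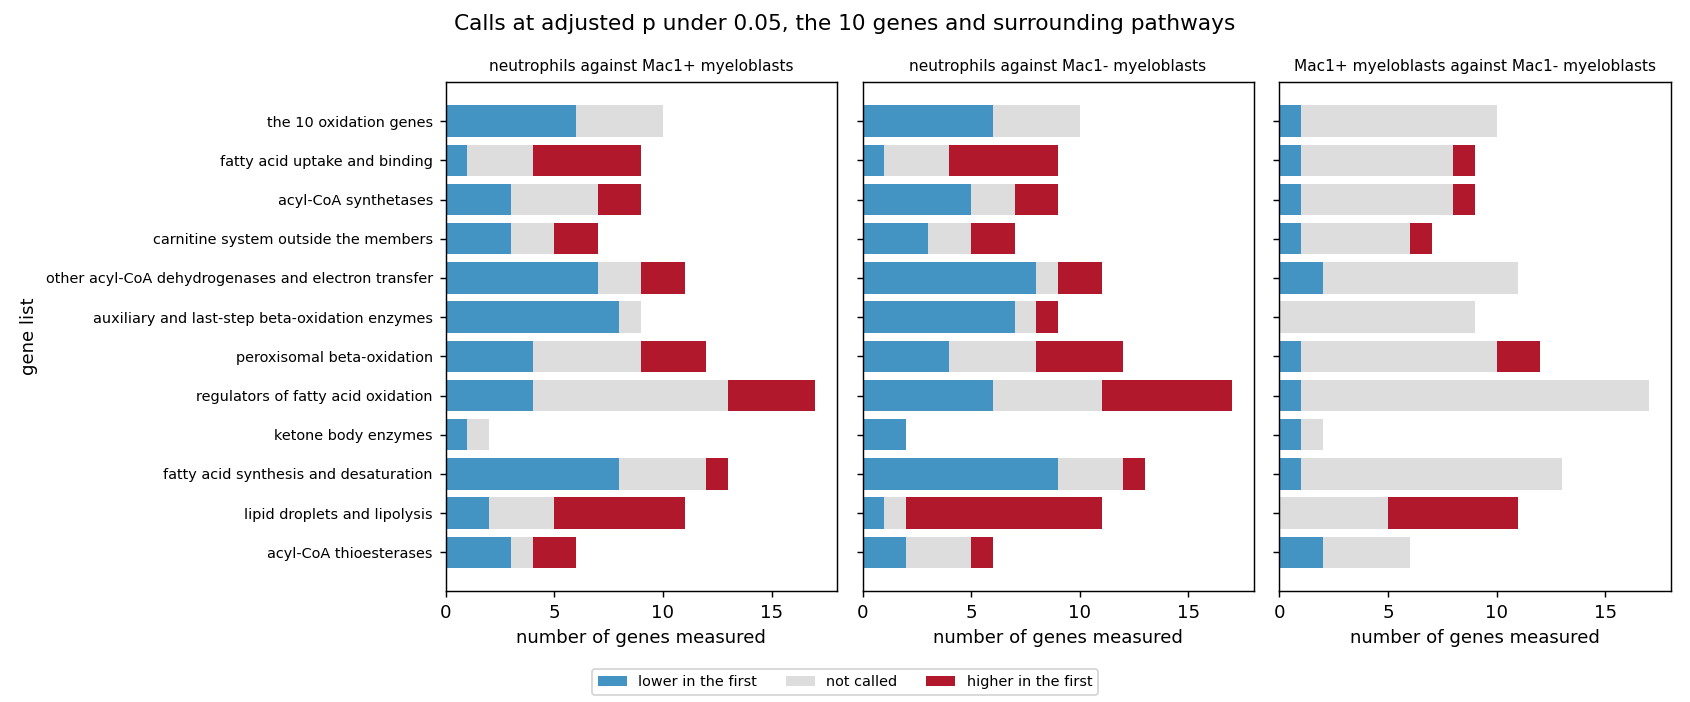
Number of genes of each list called lower (blue), not called (grey) or called higher (red) in the first population of each comparison, at a limma adjusted p under 0.05. In both neutrophil comparisons the auxiliary enzymes and the electron transfer list are mostly blue and the lipid droplet list mostly red, while most genes are grey between the myeloblasts.

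Auxiliary and last-step enzymes of beta-oxidation were lower in neutrophils for 8 of 9 genes against Mac1+ and 7 of 9 against Mac1- myeloblasts, where Ech1 was higher. The list's median difference was -1.83 and -1.76, beside 0.05 for all genes. Decr1, the dienoyl-CoA reductase that removes double bonds, averaged 6.22 ± 0.38 in neutrophils, 10.17 ± 0.14 in Mac1+ and 10.69 ± 0.03 in Mac1- myeloblasts on the log2 scale (SD, n = 3 each). It fell by 3.96 ± 0.20 against Mac1+ myeloblasts (limma, adjusted p = 3.88e-07), and the difference from Mac1- myeloblasts was -4.48 ± 0.20. Eci1, an enoyl-CoA isomerase with the same kind of task, fell, with differences of -2.90 ± 0.34 and -3.09 ± 0.34. Of the thiolases, Acat1 fell, with differences of -2.84 ± 0.27 and -3.45 ± 0.27, and for Acaa2 they were -1.85 ± 0.19 and -2.24 ± 0.19. None of the 9 was called between the myeloblasts, and 2 were lower in Mac1+ cells without neutrophil array 1.

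The list of other acyl-CoA dehydrogenases and electron transfer had 2 higher and 7 lower of 11 genes in neutrophils against Mac1+, and 2 higher and 8 lower against Mac1- myeloblasts, with medians of -1.16 and -1.12. Etfa and Etfb, the subunits of the flavoprotein that takes electrons from all acyl-CoA dehydrogenases, fell, with differences of -2.67 ± 0.15 and -2.95 ± 0.15 against Mac1+ myeloblasts (limma, adjusted p = 6.63e-07 and 4.53e-07). Both fell against Mac1- myeloblasts as well (adjusted p = 2.43e-07 and 3.47e-07). Acad9, a dehydrogenase known also as an assembly factor of respiratory complex I, fell, with differences of -3.11 ± 0.15 and -3.07 ± 0.15. Ivd, which breaks down leucine, fell, with differences of -2.99 ± 0.13 and -3.98 ± 0.13. Between the myeloblasts 2 of the 11 were lower in Mac1+ cells, Ivd by 0.99 ± 0.13 (adjusted p = 0.00131) and Acad8, of valine breakdown, by 1.31 ± 0.29 (adjusted p = 0.0191). The call of Acad8 was lost when any of the 6 myeloblast arrays was left out (adjusted p = 0.0574 to 0.0756), with arrays centred on their medians (0.0681) and with probe sets averaged (0.0873). The list had 4 higher against Mac1+ myeloblasts without neutrophil array 1.

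The rest of the carnitine system was split, with 2 of 7 genes higher and 3 lower in both neutrophil comparisons. Slc25a20, the carrier that works between Cpt1a and Cpt2, was higher by 0.90 ± 0.14 than in Mac1+ (limma, adjusted p = 0.000593) and by 1.11 ± 0.14 than in Mac1- myeloblasts. Crat, which handles short acyl groups, was higher by 0.49 ± 0.15 and 1.45 ± 0.15. Slc22a5, the carnitine importer of the cell surface, fell, with differences of -2.56 ± 0.29 and -2.84 ± 0.29. Tmlhe and Aldh9a1, enzymes of carnitine synthesis, fell too. Tmlhe averaged 4.80 in neutrophils on the log2 scale, too dim for a size, against 7.20 in Mac1+ and 8.16 in Mac1- myeloblasts (adjusted p = 9.12e-06 and 8.38e-07). Aldh9a1 differed by -3.85 ± 0.17 and -4.33 ± 0.17. In Mac1+ against Mac1- myeloblasts Crat was higher by 0.96 ± 0.15 and Tmlhe lower by 0.96 ± 0.20. Without Mac1+ array 1 or 2, or Mac1- array 2 or 3, the call of Tmlhe was lost (limma, adjusted p = 0.056 to 0.072), as it was with an offset of 1 (0.0793).

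Upstream of the mitochondrion, fatty acid uptake and binding genes were higher for 5 and lower for 1 of 9 in each neutrophil comparison, with medians of 0.78 and 0.76. Slc27a4, a fatty acid transporter with acyl-CoA synthetase activity, was higher by 2.23 ± 0.17 than in Mac1+ (limma, adjusted p = 5.09e-06) and by 3.40 ± 0.17 than in Mac1- myeloblasts. Fabp5, a fatty acid binding protein, followed another order. It averaged 12.82 ± 0.48 in neutrophils, 8.80 ± 0.38 in Mac1+ and 12.86 ± 0.06 in Mac1- myeloblasts (SD, n = 3 each), so it was higher by 4.01 ± 0.27 in neutrophils than in Mac1+ myeloblasts (adjusted p = 2.11e-06) and lower by 4.06 ± 0.27 in Mac1+ than in Mac1- myeloblasts (adjusted p = 2.03e-05). Fabp5 was not called in neutrophils against Mac1- myeloblasts, at -0.05 (adjusted p = 0.902). Between the myeloblasts 1 of 9 was higher and 1 lower.

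Among acyl-CoA synthetases 2 of 9 were higher and 3 lower in neutrophils against Mac1+, and 2 higher and 5 lower against Mac1- myeloblasts. The acetyl-CoA synthetases ran in opposite directions. Acss1, of the mitochondrion, fell, with differences of -3.02 ± 0.19 and -3.99 ± 0.19, while Acss2, of the cytosol and nucleus, was higher by 2.13 ± 0.19 and 3.27 ± 0.19. In Mac1+ against Mac1- myeloblasts Acss1 was lower by 0.97 ± 0.19 (limma, adjusted p = 0.0103) and Acss2 higher by 1.14 ± 0.19 (adjusted p = 0.00469), the only calls of the list. Without Mac1- array 2 or 3 the call of Acss1 was lost (adjusted p = 0.0514 and 0.0501), and with probe sets averaged Acss1 differed by -0.55 (0.0506). The list had 2 lower between the myeloblasts without neutrophil array 1. Acyl-CoA thioesterases had 2 of 6 higher and 3 lower against Mac1+, 1 higher and 2 lower against Mac1- myeloblasts, and 2 lower between the myeloblasts. Acot1, the cytosolic thioesterase, was higher in neutrophils by 2.79 ± 0.17 and 1.71 ± 0.17.

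Peroxisomal beta-oxidation, which starts on very long chains, had 3 of 12 higher and 4 lower against Mac1+ myeloblasts, and 4 and 4 against Mac1- myeloblasts, with medians of -0.14 and 0.10. The ABC transporters of the peroxisome were split: Abcd3 fell, with differences of -2.51 ± 0.18 and -1.79 ± 0.18, and Abcd2 was higher by 1.55 ± 0.16 and 1.56 ± 0.16. Acaa1a, the peroxisomal thiolase, was higher by 1.09 ± 0.16 and 1.15 ± 0.16. In Mac1+ against Mac1- myeloblasts 2 of 12 were higher and 1 lower. Without neutrophil array 1 the list had 5 higher against Mac1+ myeloblasts, and 4 higher and 4 lower between the myeloblasts.

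Of 17 regulators of fatty acid oxidation 4 were higher and 4 lower in neutrophils against Mac1+, and 6 and 6 against Mac1- myeloblasts, with medians of 0.29 and 0.21. Rxra, the partner of PPAR receptors on DNA, was higher by 2.65 ± 0.18 and 2.40 ± 0.18 (limma, adjusted p = 2.74e-06 and 3.94e-06). Tfam, which maintains and transcribes mitochondrial DNA, fell, with differences of -3.27 ± 0.21 and -3.66 ± 0.21. Sirt3, a mitochondrial deacetylase, fell, with differences of -1.75 ± 0.40 and -2.27 ± 0.40. Ppara, the PPAR receptor best known for oxidation genes, was dim, at 5.50 ± 0.61 in neutrophils, 4.87 ± 0.18 in Mac1+ and 5.14 ± 0.31 in Mac1- myeloblasts, and was not called. Between the myeloblasts 1 of 17 was lower, Ppargc1b by 1.92 ± 0.50 (adjusted p = 0.0374), and it too was dim. Leaving out any myeloblast array, or neutrophil array 2, ended that call (adjusted p = 0.0529 to 0.139), as did an offset of 1 (0.0878). With neutrophil array 1 left out, 4 regulators were lower between the myeloblasts, and 6 were higher in neutrophils against Mac1+ myeloblasts.

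Fatty acid synthesis and desaturation, the opposite pathway, had 1 of 13 higher and 8 lower against Mac1+, and 1 higher and 9 lower against Mac1- myeloblasts, with medians of -0.97 and -1.30. Fasn, fatty acid synthase, fell, with differences of -4.91 ± 0.25 and -5.34 ± 0.25 (limma, adjusted p = 4.27e-07 and 1.87e-07). Scd2, a desaturase, fell, with differences of -4.82 ± 0.17 and -4.58 ± 0.17. Elovl6, an elongase, was the only call between the myeloblasts, lower in Mac1+ by 3.41 ± 0.21 (adjusted p = 1.33e-05). Leaving out neutrophil array 1 gave 2 higher against Mac1+ myeloblasts and 2 lower between the myeloblasts. Of the ketone body enzymes 2 were measured. Oxct1, which lets cells use ketone bodies, fell, with differences of -2.76 ± 0.18 and -2.80 ± 0.18, and Bdh1 fell by 2.39 ± 0.19 against Mac1- myeloblasts and was lower by 2.20 ± 0.19 in Mac1+ than in Mac1- myeloblasts.

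Lipid droplet and lipolysis genes were higher in neutrophils for 6 and lower for 2 of 11 against Mac1+, and higher for 9 and lower for 1 against Mac1- myeloblasts. The medians were 0.55 and 2.13. Mgll, the lipase for the last step of triglyceride breakdown, averaged 11.80 ± 0.39 in neutrophils, 9.28 ± 0.16 in Mac1+ and 6.70 ± 0.03 in Mac1- myeloblasts (SD, n = 3 each). It was higher in neutrophils by 2.52 ± 0.20 and 5.10 ± 0.20 (limma, adjusted p = 6.81e-06 and 8.14e-08). Pnpla2, the lipase for the first step, was higher by 1.57 ± 0.15 and 1.47 ± 0.15, and Lipe, hormone-sensitive lipase, by 1.84 ± 0.17 and 2.13 ± 0.17. This list also had the most calls between the myeloblasts, with 6 of 11 higher and none lower in Mac1+ cells and a median of 1.66. Without neutrophil array 1, 6 were higher and 1 lower there. G0s2, an inhibitor of Pnpla2, was higher by 2.76 ± 0.16 there, and Abhd5, its activator, by 2.73 ± 0.17 (adjusted p = 1.18e-05 and 1.33e-05).

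The 10 genes did not share a pattern over the 9 arrays. Each gene was centred on its own mean and the 10 were averaged. Pearson's r with this average, which includes the gene itself, was 0.998 for Echs1, 0.995 for Hadh, 0.961 for Hadha, 0.945 for Acads, 0.942 for Acadl, 0.939 for Hadhb and 0.599 for Acadm. It was -0.16 for Cpt2, -0.49 for Cpt1a and -0.634 for Acadvl. Hadh and Echs1 weigh most in the average because they vary most, and the arrays share their group. Among 9086 other genes with a mean above the median gene, those most like the average were Srp68 (r = 0.9998), Miga1 (0.9997), Sf3a3 (0.9994), Lman1 (0.9993) and Vps50 (0.9992). In neutrophils against Mac1+ myeloblasts their differences were -2.53, -4.18, -2.89, -4.69 and -3.65, with Miga1 and Vps50 below the middle of the arrays in neutrophils.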

How the data were processed

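RNA of the 3 populations was purified on columns, amplified in 2 cycles, labelled with biotin and hybridised to Affymetrix mouse arrays, per the labels' protocols. The authors deposited a single table of linear intensity values. Their summarisation, background correction and scaling are not given in the sources used here. Precision is limited by the number of arrays.

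The deposited intensity values were used as log2(intensity + 16). The platform annotation named the probe sets: 34945 name 1 gene, 932 name several and 64 are controls, which were left out. Of the named IDs 99.4% matched the RefSeq gene table. For each gene the probe set with the highest mean over the 9 arrays was kept. All 3 groups entered 1 model in limma 3.58.1 (R 4.3.3), with Benjamini-Hochberg adjustment over 18193 genes and calls at an adjusted p under 0.05. A separate fit covered 45037 probe sets. The procedure was tested on simulated data with independent normal noise and, for each gene, the same spread in all groups. That setting does not cover the wider spread of the neutrophil arrays.

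All 10 genes are named. Of each pathway list and comparison, some of up to 4 called genes with the largest differences are named, or of the 2 of smallest p if no gene was called. Ppara was named outside this rule, after its values were seen. Some genes named in a comparison are quoted in the others too. The sort markers and the 5 genes most like the average are also named. The 10 genes and the lists were chosen with earlier results of these data known. Some genes of the pathway lists are not reported here. The tests were repeated with the replicate number as a block, with quantile normalization or centred arrays, with offsets of 1 and 64, without genes under the 40th percentile, and with probe sets averaged per gene. They were also repeated without probe sets of suffix x or s, with a trended robust prior, in fits of only the 2 groups compared, and without each array in turn.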

Additional observations from a re-analysis of the deposited data

How the results depend on the processing

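Of 570 values of the 10 genes under 19 alternatives, 544 kept their direction and their side of the threshold. The 6 genes lower in neutrophils stayed 6 without any single array, and Hadhb was lost only with averaged probe sets, as given above. No gene of the 10 was higher in neutrophils against Mac1- myeloblasts, but quantile normalization gave 1 (Acadvl, 0.36). None was higher in Mac1+ than in Mac1- myeloblasts, but a fit of only these 2 groups gave 1 (Cpt2). The single lower gene there, Hadh, became 0 with centred arrays (-0.73, limma, adjusted p = 0.0593), and 2 with an offset of 64 or in the fit of only 2 groups, which added Echs1. In that fit 24 pathway genes were lower, against 11. The share of all genes called was not computed for that fit or for the fits with an array left out. Leaving out each array gave 0 to 1 higher genes in each of the 3 comparisons, 0 to 2 lower genes between the myeloblasts, and 6 to 22 lower pathway genes there, the 22 without neutrophil array 1. Reversals were all of values not called: with centred arrays Cpt1a -0.16, Cpt2 -0.19 and Acadvl -0.08 in neutrophils against Mac1+ myeloblasts, with averaged probe sets Cpt2 -0.19, and with quantile normalization Kit -0.03 between the myeloblasts. Leaving out each array gave 0.00 to 0.11 for Cpt1a, -0.25 to 0.48 for Cpt2 and -0.45 to 0.06 for Acadm in neutrophils against Mac1+ myeloblasts, and -0.20 to 0.07 for Hadha between the myeloblasts. Apart from the leave-outs, the cause was not tested. Centring moved the median of all genes to -0.15 and -0.12 in the neutrophil comparisons, beside 0.05 as deposited.

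Groups share replicate numbers. With the replicate number as a block, Hadh differed by -6.21 and -6.97 in the neutrophil comparisons (limma, adjusted p = 2.53e-06 and 1.21e-06), and 6, 6 and 1 of the 10 genes were called lower and 0 higher. Deviations of same-numbered arrays from their group means correlated between -0.307 and 0.132, and in 2 of 9 same-numbered pairs the best match was the same number, so the numbers were not taken as pairs.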
